A study of Homo sapiens with 12 samples.

Results

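The replicative DNA polymerases, primase and the sliding clamp PCNA were examined as 10 genes: PRIM1 and PRIM2 (the subunits of primase), POLA1 and POLA2 (DNA polymerase α), POLD1, POLD2 and POLD3 (DNA polymerase δ), POLE and POLE2 (DNA polymerase ε), and PCNA. They were chosen by gene symbol, as 10 of the 60612 named genes in the count table, and each stood on 1 row. All 10 passed the filter on low counts that left 11803 genes for testing. Transcript abundance was measured by 3′ RNA-seq, which reads the 3′ end of polyadenylated RNA, in CAMA1 cells, an established oestrogen receptor (ER)-positive breast cancer cell line whose genotype was labelled wild-type. Cells received the vehicle DMSO, 100 nM abemaciclib (an inhibitor of the kinases CDK4 and CDK6), 5 nM fulvestrant (a selective degrader of ER), or both drugs, for which the labels did not restate the doses. Treatment lasted 5 days, and each of the 4 groups held 3 libraries of this 1 line. The series set these treatments side by side to ask how CDK4/6 inhibition and loss of ER act on the transcriptome, alone and together.

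DNA polymerase α and primase form a single complex that lays down a short RNA-DNA primer at origins and at the start of each Okazaki fragment. DNA polymerase ε then extends the leading strand and DNA polymerase δ the lagging strand, and PCNA, a ring that encircles DNA, tethers them to the template. Many of these genes are classical targets of E2F transcription factors, which the retinoblastoma protein holds in check until cyclin-dependent kinases phosphorylate it.

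The promoters of 4 of the genes are shown because the genes answered the treatments differently below: PCNA and POLA2 were lower in the combination than with either drug, PRIM1 fell about as far in each group, and POLD2 was not called with abemaciclib. Each run is the RefSeq sequence of the 250 bases before an annotated start (GRCh38.p14), written 5′ to 3′ on the strand of the gene. Capitals mark the core of an E2F motif, given below, on either strand. The windows were PCNA at chr20:5126623-5126872 (minus strand), POLA2 at chr11:65261712-65261961 (plus), PRIM1 at chr12:56752324-56752573 (minus) and POLD2 at chr7:44123549-44123798 (minus).
PCNA: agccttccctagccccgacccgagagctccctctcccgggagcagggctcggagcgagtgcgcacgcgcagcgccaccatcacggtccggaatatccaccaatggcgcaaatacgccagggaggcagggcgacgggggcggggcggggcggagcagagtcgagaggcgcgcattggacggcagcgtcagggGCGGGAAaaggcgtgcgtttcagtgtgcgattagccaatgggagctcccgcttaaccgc
POLA2: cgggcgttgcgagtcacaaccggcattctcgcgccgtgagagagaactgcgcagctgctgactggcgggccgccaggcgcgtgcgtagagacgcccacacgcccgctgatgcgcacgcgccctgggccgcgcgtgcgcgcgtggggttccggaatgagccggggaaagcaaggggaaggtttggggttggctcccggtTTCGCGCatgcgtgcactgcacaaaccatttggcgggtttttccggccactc
PRIM1: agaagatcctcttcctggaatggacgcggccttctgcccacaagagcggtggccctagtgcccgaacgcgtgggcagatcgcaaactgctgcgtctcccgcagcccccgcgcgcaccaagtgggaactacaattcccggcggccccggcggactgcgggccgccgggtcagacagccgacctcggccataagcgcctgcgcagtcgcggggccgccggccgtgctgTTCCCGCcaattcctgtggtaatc
POLD2: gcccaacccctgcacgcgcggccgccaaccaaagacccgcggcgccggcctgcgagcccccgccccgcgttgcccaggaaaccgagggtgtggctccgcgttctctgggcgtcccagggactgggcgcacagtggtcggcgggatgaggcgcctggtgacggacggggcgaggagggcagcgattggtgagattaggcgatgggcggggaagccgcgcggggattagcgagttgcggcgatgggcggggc

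Of the 10 genes, 9 had a promoter entry, with 12 windows in all, and POLD3 had none. Searched over 300 bases, from 250 before to 50 after each start, an E2F motif of 8 letters (TTTCCCGC, TTTCGCGC, TTTGCCGC or TTTGGCGC, either strand) was present in 5 of the 9 genes: PCNA, POLA1, POLA2, POLE and POLE2. Counted by window, 5 of the 12 held it, beside 3.315% of all 35116 windows of this length. The match in PCNA lay at positions -59 to -52 from the start, that in POLA2 at -53 to -46, that in POLE at -18 to -11 and that in POLE2 at -5 to 2. The match in POLA1 lay further from the start, at -137 to -130. The 7-letter core is the same motif without its first T and so is held by every longer match. It was also found in PRIM1, at -24 to -18, and thus in 6 of the 12 windows, beside 12.97% of all windows. The letters CCAAT, the core of the site bound by NF-Y, stood in 5 genes (PCNA, POLA1, POLD2, POLE and PRIM1). By window this was 6 of the 12, beside 34.61% of all windows. In PRIM1 the first base of CCAAT, at -18, was the last base of the E2F core. No E2F letters were found in the windows of POLD1, POLD2 or PRIM2, nor in the other annotated window of PCNA, which is not shown.

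Libraries held 3299119 to 5164667 counts. Levels are given as CPM, which divides the counts of a gene by the size of its library, with sizes scaled by trimmed mean of M values (TMM). At these depths 3 counts, taken as the floor, amounted to 0.570 to 0.890 CPM. The 7 luminal epithelial markers checked (among them ESR1, GATA3, FOXA1 and keratins) were detected in every library. Their summed levels were 5556 to 5900 CPM in DMSO, 6565 to 6712 with abemaciclib, 7001 to 7653 with fulvestrant and 6663 to 7367 in the combination. GATA3 and KRT19 weighed most in these sums. By the test given below, 1 marker was called lower and 3 higher with abemaciclib, 0 and 4 with fulvestrant, and 2 and 3 in the combination. Of all genes, 20.7%, 25.7% and 27.5% were called lower and 20.5%, 25.3% and 27.7% higher. The lower calls were GATA3 with abemaciclib and KRT8 and KRT18 in the combination. Markers of other cells were near the floor: 3 leukocyte markers summed to at most 0.241 CPM and 2 endothelial markers to at most 0.846 CPM in any library. Of 3 fibroblast markers COL1A2 and LUM were at 0 in every library, whereas COL1A1 stood at 14.2 to 25.9 CPM.

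Levels of the replicative polymerase genes were lower in every treatment group than in DMSO. Summed over the 10 genes, the level was 692 ± 58.4 CPM in DMSO (mean ± SD, n = 3, as throughout), 252 ± 1.75 with abemaciclib, 219.8 ± 15.8 with fulvestrant and 179 ± 1.66 in the combination. For each of the 10 genes, in each of the 3 drug groups, every treated library lay below every DMSO library. Of all genes tested, 27.2% did so with abemaciclib, 28.1% with fulvestrant and 30.7% in the combination. In bulk RNA, fewer cells expressing these genes and less RNA per cell cannot be told apart.

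By the edgeR quasi-likelihood test, with p-values adjusted by the Benjamini-Hochberg method over all genes tested and called under 0.05, abemaciclib lowered 9 of the 10 genes, beside 20.7% of all tested genes called lower. Fulvestrant lowered all 10, beside 25.7%, and the combination lowered 9, beside 27.5%. The median log2 fold change of the 10 genes was -1.12 with abemaciclib, -1.46 with fulvestrant and -1.60 in the combination, whereas the median over all tested genes was 0.00046, 0.0076 and 0.01. These 3 comparisons share the same DMSO libraries and are therefore not independent of each other. The p-values measure the spread between libraries within groups, estimated jointly over the 4 groups of 3 libraries and with information shared across genes. They do not use a separate spread for each group.

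**Figure D1:**
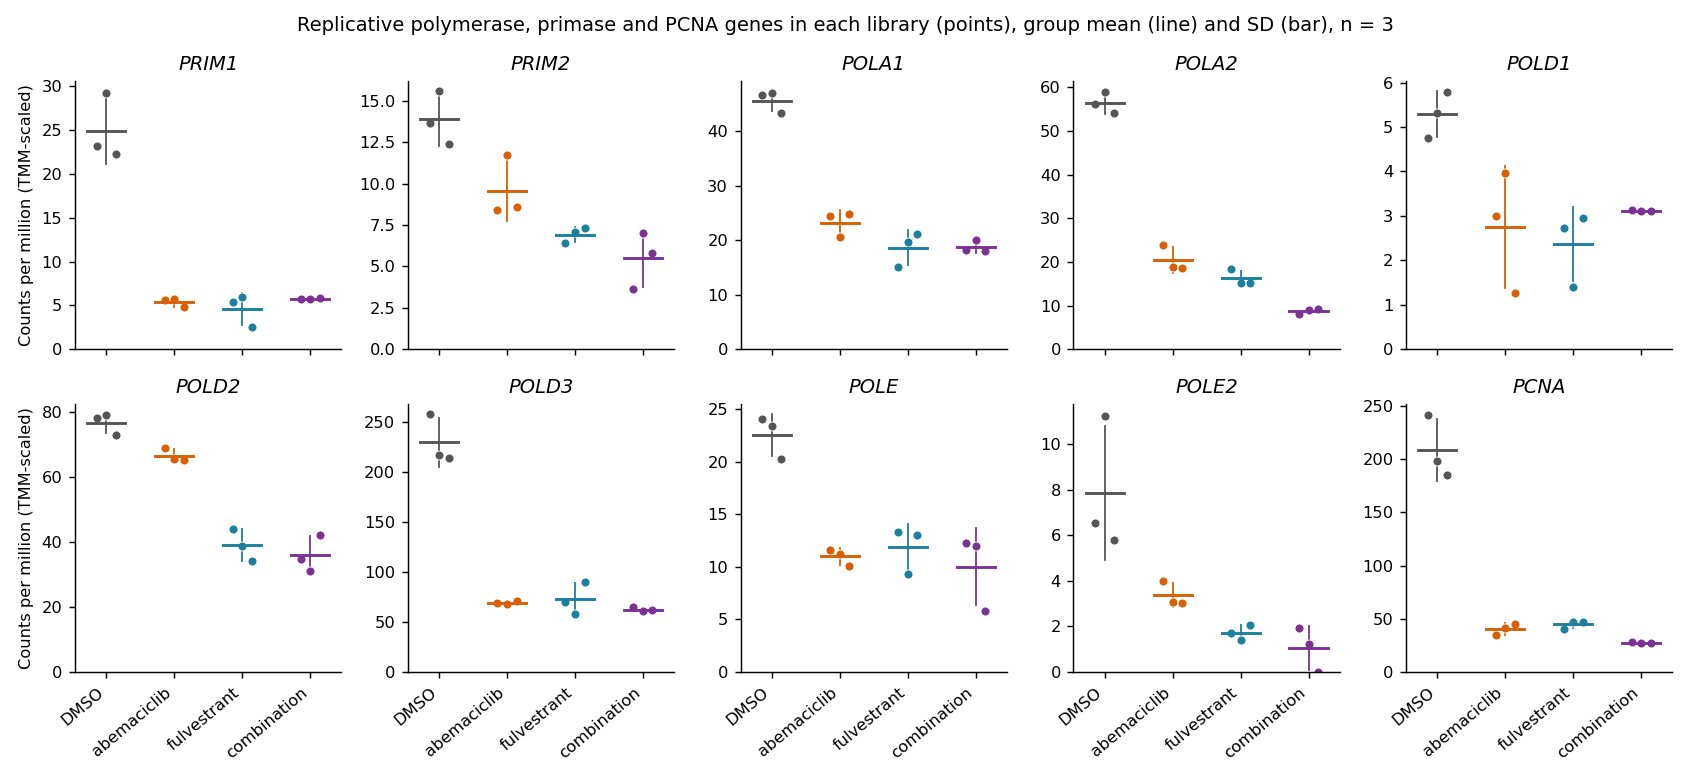
Levels of the 10 genes in each library in CPM (vertical axis, from 0), by treatment group (horizontal axis); points are libraries, horizontal lines group means and vertical bars SD (n = 3). Every treated point of every gene lies below its DMSO points, and POLD2 with abemaciclib keeps the largest share of its DMSO mean, at 66.6 CPM beside 76.8 CPM.

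Primase synthesises the RNA primer, and its catalytic subunit, PRIM1 (chr12:56730438-56752374, minus strand, GRCh38), was among the most strongly lowered of the 10 genes. PRIM1 stood at 23.2, 29.3 and 22.3 CPM in the 3 DMSO libraries, 5.60, 5.74 and 4.80 with abemaciclib, 5.44, 5.92 and 2.51 with fulvestrant and 5.77, 5.79 and 5.83 in the combination. Fulvestrant replicate 3 was the lowest library, the other 8 treated libraries lay between 4.80 and 5.92 CPM, and each combination library was slightly above each abemaciclib library. The mean was 21.6% of the DMSO mean with abemaciclib, 18.6% with fulvestrant and 23.3% in the combination, so the 3 treated means lay close together. The log2 fold change was -2.21 ± 0.22 (SE) with abemaciclib (adjusted p = 4.87e-09), -2.46 ± 0.23 with fulvestrant (8.96e-10) and -2.11 ± 0.21 in the combination (3.28e-09). Of the annotated exonic bases of PRIM1, 15.1% were shared with other genes on the same strand, NACA among them, and reads from those bases cannot be assigned with certainty.

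PRIM2 (chr6:57314805-57646850, plus strand), the large subunit of primase that supports primer initiation and hand-over to polymerase α, fell less. Its levels were 13.7, 15.6 and 12.4 CPM in DMSO, 8.40, 11.7 and 8.59 with abemaciclib, 6.42, 7.05 and 7.29 with fulvestrant and 3.61, 7.03 and 5.83 in the combination. Abemaciclib replicate 2 came close to the lowest DMSO library, and the fulvestrant and combination groups overlapped. PRIM2 changed by -0.54 ± 0.21 on the log2 scale with abemaciclib (adjusted p = 0.0452), -1.004 ± 0.23 with fulvestrant (6.27e-04) and -1.32 ± 0.23 in the combination (2.28e-05). The abemaciclib call was lost when any of DMSO replicates 1 or 2 or abemaciclib replicates 1 or 3 was left out (adjusted p of 0.0737, 0.188, 0.164 and 0.134), with DESeq2 in place of edgeR (0.0861), with upper-quartile scaling (0.055) and with no filter on low counts (0.0847).

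POLA1 (chrX:24693873-24996986, plus strand) encodes the catalytic subunit of polymerase α, which extends the RNA primer with DNA. It was measured at 46.6, 46.9 and 43.4 CPM in DMSO, 24.4, 20.5 and 24.8 with abemaciclib, 15.1, 19.7 and 21.2 with fulvestrant and 18.3, 20.1 and 18.1 in the combination. Treated libraries thus stood at 40.9% to 50.9% of the control mean by group, with fulvestrant and combination values interleaved. Its log2 fold change was -0.97 ± 0.13 with abemaciclib (adjusted p = 1.34e-06), -1.29 ± 0.14 with fulvestrant (1.33e-08) and -1.28 ± 0.14 in the combination (7.99e-09).

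Its accessory subunit, POLA2 (chr11:65261913-65305959, plus strand), which anchors the polymerase α complex, gave a stepwise pattern. POLA2 stood at 56.1, 58.9 and 54.2 CPM in DMSO, 23.8, 18.8 and 18.7 with abemaciclib, 18.3, 15.2 and 15.3 with fulvestrant and 8.18, 9.10 and 9.13 in the combination. No 2 groups overlapped, and the combination was lowest, at 15.6% of the DMSO mean. On the log2 scale the change was -1.46 ± 0.13 with abemaciclib (adjusted p = 7.59e-10), -1.79 ± 0.14 with fulvestrant (1.53e-11) and -2.67 ± 0.15 in the combination (1e-14), while fulvestrant against abemaciclib, -0.33 ± 0.15, did not pass (0.104). Of its exonic bases, 16.8% were shared with another annotated gene on the same strand.

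POLD1 (chr19:50384204-50418018, plus strand), the catalytic subunit of polymerase δ, gave only 5 to 28 counts per library, so its changes are known least well together with those of POLE2. It stood at 4.75, 5.32 and 5.79 CPM in DMSO, 3.00, 3.97 and 1.26 with abemaciclib, 2.72, 1.41 and 2.96 with fulvestrant and 3.13, 3.10 and 3.11 in the combination. All 9 treated libraries were under the lowest control. The abemaciclib libraries spanned those of both other treated groups, and each combination library was above each fulvestrant library. The log2 fold change was -0.92 ± 0.34 with abemaciclib (adjusted p = 0.0335), -1.14 ± 0.36 with fulvestrant (0.0105) and -0.77 ± 0.33 in the combination, which was not called (0.0529; 95% confidence interval -1.46 to -0.08). The abemaciclib call was lost without abemaciclib replicate 3, the lowest library (-0.61, adjusted p = 0.176), without abemaciclib replicate 1 (0.0668), without DMSO replicate 2 (0.079) or 3 (0.101), with DESeq2 (0.0691) and with no filter on low counts (0.059). The fulvestrant call was lost without fulvestrant replicate 2 (0.0545). The combination passed on library sizes scaled by the median-of-ratios method (0.0486) and in a fit of those 2 groups alone (0.0283). Of the exonic bases of POLD1, 8.63% were shared with another annotated gene on the same strand.

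POLD2 (chr7:44114631-44124358, minus strand), an accessory subunit that joins the catalytic subunit to the rest of polymerase δ, was the 1 gene of the 10 called different between the 2 drugs. Its levels were 78.4, 79.1 and 73.0 CPM in DMSO, 69.0, 65.6 and 65.2 with abemaciclib, 43.98, 38.9 and 34.2 with fulvestrant and 34.9, 31.2 and 42.3 in the combination. Abemaciclib libraries lay just under the controls, whereas fulvestrant and combination libraries overlapped one another well below them. The change with abemaciclib was -0.20 ± 0.11 on the log2 scale and was not called (adjusted p = 0.139; 95% confidence interval -0.43 to 0.02). POLD2 fell by 0.98 ± 0.12 with fulvestrant (6.5e-08) and by 1.08 ± 0.12 in the combination (7.15e-09).

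POLD3 (chr11:74493851-74669117, plus strand), a subunit with which polymerase δ binds PCNA, had levels of 258, 217 and 214 CPM in DMSO, 68.6, 68.2 and 71.3 with abemaciclib, 70.4, 58.4 and 90.5 with fulvestrant and 64.7, 60.8 and 61.6 in the combination. All treated groups lay at about the same level, and fulvestrant replicate 3 was the highest treated library. POLD3 reached 30.2%, 31.8% and 27.1% of the DMSO mean with abemaciclib, fulvestrant and the combination. The log2 fold changes were -1.73 ± 0.11 (adjusted p = 6.34e-12), -1.64 ± 0.11 (6.15e-12) and -1.88 ± 0.11 (3.97e-13), in the same order. Fulvestrant replicate 3 was also the lowest library for PRIM1, and the fulvestrant calls of POLD3 and PRIM1 passed with any 1 library left out (adjusted p of at most 1.13e-09 and 8.92e-08).

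POLE (chr12:132623753-132687376, minus strand) encodes the catalytic subunit of polymerase ε. It stood at 24.04, 23.4 and 20.3 CPM in DMSO, 11.6, 11.3 and 10.1 with abemaciclib, 13.3, 9.31 and 12.99 with fulvestrant and 12.3, 12.0 and 5.83 in the combination. The treated groups overlapped, and combination replicate 3 was the lowest library. On the log2 scale the change was -1.03 ± 0.20 with abemaciclib (adjusted p = 2.04e-04), -0.91 ± 0.21 with fulvestrant (5.49e-04) and -1.18 ± 0.21 in the combination (2.16e-05).

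POLE2 (chr14:49643555-49688422, minus strand), the second subunit of polymerase ε, which links it to the replicative helicase, gave 0 to 59 counts per library. It exceeded the filter's level in all DMSO and all abemaciclib libraries and in no other, so it was tested through the groups in which it was higher. POLE2 stood at 6.53, 11.2 and 5.79 CPM in DMSO, 4.00, 3.09 and 3.03 with abemaciclib, 1.73, 1.41 and 2.05 with fulvestrant and 1.92, 1.24 and 0 in the combination. The 0 was in combination replicate 3, the library that was also lowest for POLE, where a count of 0 allows up to 0.583 CPM by counting error alone. Levels descended from DMSO through abemaciclib to fulvestrant, while fulvestrant and combination libraries overlapped. The log2 fold change was -1.22 ± 0.38 with abemaciclib (adjusted p = 0.0111), -2.17 ± 0.44 with fulvestrant (1.74e-04) and -2.96 ± 0.47 in the combination (7.03e-06). Without DMSO replicate 2, its highest library, the abemaciclib change was -0.84 and was not called (adjusted p = 0.138). The combination change was -3.66 when combination replicate 1 was left out and -2.33 when replicate 3 was, and was called in both.

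PCNA (chr20:5114953-5126626, minus strand), the clamp, was measured at 241, 199 and 185 CPM in DMSO, 34.6, 41.3 and 45.5 with abemaciclib, 40.8, 47.4 and 47.4 with fulvestrant and 27.9, 27.1 and 27.0 in the combination. Abemaciclib and fulvestrant libraries overlapped, and the combination libraries lay below both. PCNA was thus at 19.4%, 21.7% and 13.1% of the DMSO mean. The log2 fold change was -2.37 ± 0.11 with abemaciclib (adjusted p = 1.65e-15), -2.20 ± 0.11 with fulvestrant (2.48e-15) and -2.93 ± 0.12 in the combination (6.76e-18). Among all 11803 genes ranked from the lowest fold change, PCNA was 79th with abemaciclib, 329th with fulvestrant and 269th in the combination.

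**Figure D2:**
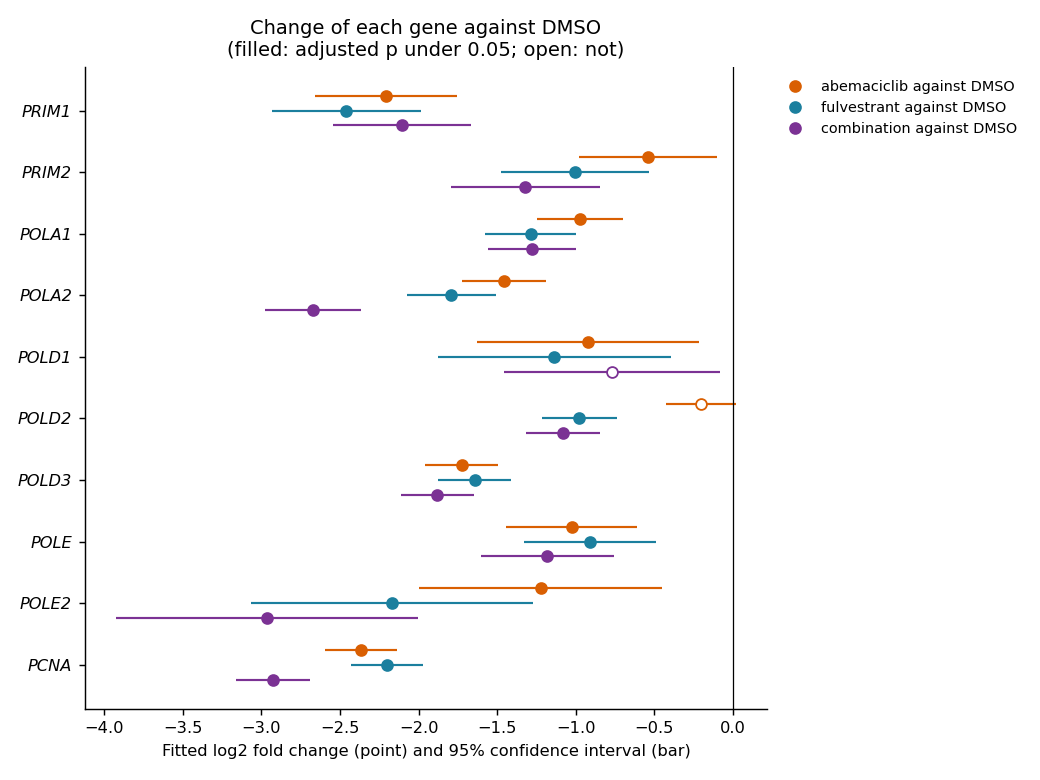
Fitted log2 fold change against DMSO (horizontal axis; points) with 95% confidence intervals (bars) for the 10 genes (vertical axis), with abemaciclib, fulvestrant and the combination; filled points passed an adjusted p of 0.05. The 2 open points are POLD2 with abemaciclib, at -0.20, and POLD1 in the combination, at -0.77.

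The next comparisons asked whether the 2 drugs differed from each other and whether each added to the other. Because the labels did not restate the doses of the combination, it is not known whether each drug had its single-drug dose there. Fulvestrant against abemaciclib gave 1 call among the 10 genes, POLD2, which was lower. Of all 11803 genes tested, 3417 were called in this comparison, 1831 lower (15.5%) and 1586 higher. POLD2 was 1.71-fold lower with fulvestrant (log2 fold change -0.77 ± 0.12, adjusted p = 9.66e-06). The other 9 were not called, with differences from -0.95 ± 0.50 for POLE2 (0.165) to 0.17 ± 0.12 for PCNA (0.34; 95% confidence interval -0.08 to 0.42). For POLD3 the interval, -0.16 to 0.33, held no difference as large as either drug's own effect.

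With fulvestrant added to abemaciclib, 5 of the 10 genes were lower than with abemaciclib alone, beside 17.7% of all genes. POLE2 fell by 1.74 ± 0.54 (adjusted p = 0.0137), POLA2 by 1.21 ± 0.16 (1.22e-06), POLD2 by 0.88 ± 0.12 (9.27e-07), PRIM2 by 0.78 ± 0.24 (0.014) and PCNA by 0.56 ± 0.13 (0.00103) on the log2 scale. PRIM1 (0.10 ± 0.27, adjusted p = 0.809), POLA1 (-0.30 ± 0.15, 0.113), POLE (-0.15 ± 0.23, 0.638), POLD1 (0.15 ± 0.37, 0.795) and POLD3 (-0.15 ± 0.12, 0.336) were not called. Whether the called genes changed more than the uncalled ones was not tested. The intervals of the uncalled genes ran as wide as -0.61 to 0.91 for POLD1 and -0.45 to 0.65 for PRIM1. The call for POLE2 was lost without abemaciclib replicate 1 (adjusted p = 0.0609) or combination replicate 3 (-1.11, 0.0791), and that for PRIM2 without abemaciclib replicate 2 (0.102) or combination replicate 1 (0.0856).

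When abemaciclib joined fulvestrant, POLA2 and PCNA were lower than with fulvestrant alone, 2 of the 10 genes beside 1.63% of all genes called lower. POLA2 fell by 0.88 ± 0.17 on the log2 scale (adjusted p = 0.00255), a 1.84-fold decrease. PCNA fell by 0.73 ± 0.13 (6.04e-04), a 1.65-fold decrease. The remaining 8 had differences between -0.79 ± 0.62 for POLE2 (0.688; -1.50 to -0.17 over libraries left out, the ends set by combination replicates 1 and 3) and 0.37 ± 0.39 for POLD1 (0.784), and POLA1 was at 0.01 ± 0.15 (0.991; 95% confidence interval -0.31 to 0.32). Over all genes this comparison gave 227 calls, and 588 without fulvestrant replicate 3, but POLA2 and PCNA were called with any 1 library left out (adjusted p of at most 0.0299 and 0.00626). They were the 2 genes of the 10 that were called lower in the combination than with either drug.

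The interaction is the log2 change with abemaciclib in the presence of fulvestrant minus that in its absence. It was above 0 for all 10 genes, with a median of 0.87 beside -0.01 over all genes. Over all 11803 genes tested, it was below 0 for 6045. It also fell below 0 for POLE2 without combination replicate 1 (-0.28) and for POLD2 without combination replicate 3 (-0.049). It compares like with like only if the combination used the single-drug doses, which the labels did not restate. It passed for 4, beside 9.49% of all genes called in this direction. PRIM1 fell by 2.21 with abemaciclib alone but differed by 0.35 ± 0.28 between the combination and fulvestrant (0.03 to 0.56 over libraries left out). Its interaction was 2.56 ± 0.36 (adjusted p = 8.4e-06). For PCNA the interaction was 1.64 ± 0.17 (6.43e-08), for POLD3 1.49 ± 0.16 (3.29e-07) and for POLA1 0.98 ± 0.20 (8.75e-04). PCNA still decreased in both settings, whereas POLD3 and POLA1 were called only in the absence of fulvestrant. The other 6 were not called, and ranged from 0.10 ± 0.16 for POLD2 (0.717; 95% confidence interval -0.24 to 0.44) to 1.29 ± 0.52 for POLD1 (0.0798). With no scaling factors POLA2 (0.69, adjusted p = 0.0278) and POLE (0.86, 0.0432) passed as well. The interaction also passed for POLE without combination replicate 3 (1.03, 0.00824), for POLD1 without abemaciclib replicate 2 (1.62, 0.0472), and for POLA2 without abemaciclib replicate 1 (0.71, 0.0304) or fulvestrant replicate 1 (0.66, 0.0497).

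**Figure D3:**
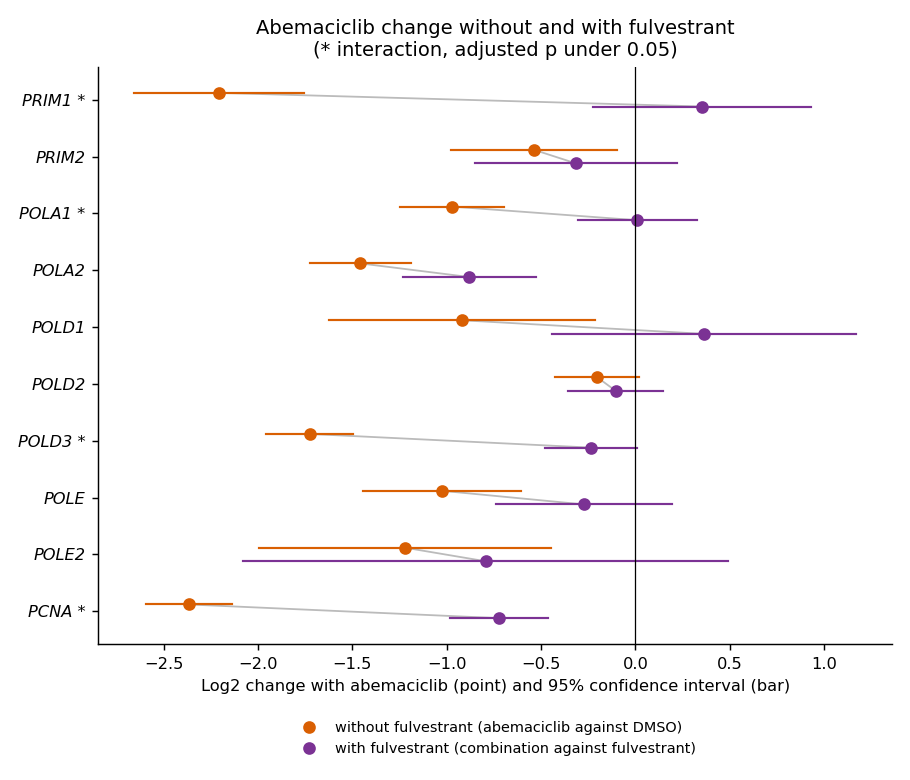
Log2 change with abemaciclib (horizontal axis; points) with 95% confidence intervals (bars) for the 10 genes (vertical axis), without fulvestrant (abemaciclib against DMSO) and with it (combination against fulvestrant); asterisks mark an interaction that passed an adjusted p of 0.05. PRIM1 moves from -2.21 to 0.35 and PCNA from -2.37 to -0.73, whereas POLD2 is near 0 in both, at -0.20 and -0.11.

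Because subunits of 1 complex fell unequally, the log2 ratio of a pair of subunits was compared in each library (CPM with a prior count of 2). Counts at 3′ ends were not scaled by length, so the change of a ratio between groups was read and not its level. With 3 libraries against 3, the exact two-sided permutation test cannot give a p below 0.1, and 12 comparisons were made, so no ratio could pass 0.05. PRIM1 over PRIM2 was 0.74, 0.89 and 0.83 in DMSO, -0.55, -0.97 and -0.78 with abemaciclib, -0.22, -0.24 and -1.39 with fulvestrant and 0.62, -0.26 and 0 in the combination. No treated library reached the DMSO values, and the mean difference from DMSO was -1.59, -1.44 and -0.70 (each exact p = 0.1, adjusted 0.133). POLA2 over POLA1 was 0.27, 0.32 and 0.32 in DMSO and -1.12, -1.10 and -0.95 in the combination, a mean difference of -1.36 (exact p = 0.1). With abemaciclib the difference was -0.49 (exact p = 0.1), and with fulvestrant it was also -0.49, where replicate 1 overlapped the DMSO libraries (exact p = 0.2, adjusted 0.24).

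POLD3 over POLD1 differed from DMSO by -0.77 with abemaciclib (exact p = 0.3, adjusted 0.327), by -0.59 with fulvestrant and by -1.19 in the combination (each exact p = 0.1). The abemaciclib group overlapped DMSO through replicate 3, in which POLD1 had 5 counts. For polymerase ε, POLE2 over POLE was -1.52 ± 0.43 in DMSO and -1.59 ± 0.14 with abemaciclib, a difference of -0.06 (exact p = 1). It was -2.49 ± 0.15 with fulvestrant and -3.03 ± 0.70 in the combination, both without overlap with DMSO (exact p = 0.1). The POLE2 ratio in the combination contains the library with 0 counts and depends there on the prior count.

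**Figure D4:**
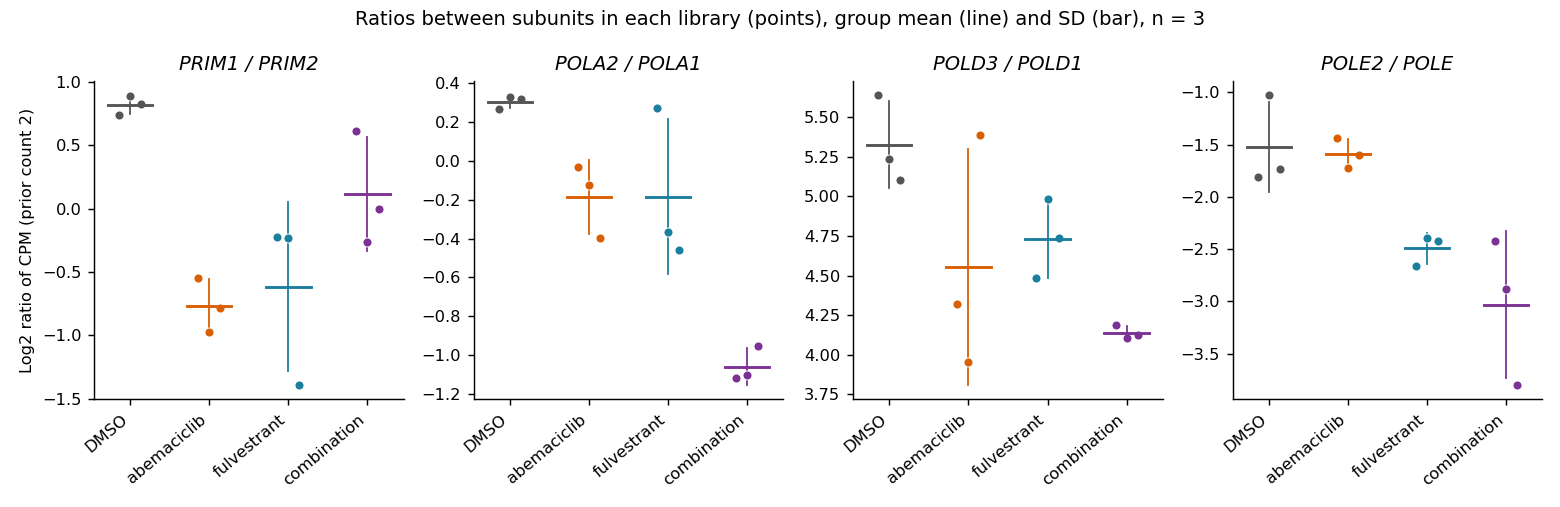
Log2 ratio of CPM between 2 subunits of a complex (vertical axis, prior count 2) by treatment group (horizontal axis); points are libraries, horizontal lines means and vertical bars SD (n = 3). POLA2 over POLA1 drops furthest in the combination, to a mean of -1.06, whereas POLE2 over POLE is alike in DMSO and abemaciclib libraries.

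The remaining subunits of these polymerases and the CST complex, a cofactor of polymerase α-primase at telomeres, were then examined. POLD4 (0 to 3 counts per library) and TEN1 (0 to 2 counts) were too low to test. POLE3, a histone-fold subunit of polymerase ε that also belongs to a chromatin remodelling complex, stood at 255, 289 and 273 CPM in DMSO, 231, 238 and 223 with abemaciclib, 156, 136 and 143 with fulvestrant and 159, 155 and 169 in the combination. Abemaciclib lowered it slightly (log2 fold change -0.24 ± 0.08, adjusted p = 0.0144), and fulvestrant (-0.91 ± 0.08, 2.21e-10) and the combination (-0.76 ± 0.08, 4.81e-09) more. POLE4, its histone-fold partner, was called with fulvestrant (-1.09 ± 0.25, 5.66e-04) and in the combination (-1.71 ± 0.26, 2.75e-06) but not with abemaciclib (-0.38 ± 0.22, 0.181).

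The CST subunits that were called moved the other way, beside 20.5%, 25.3% and 27.7% of all genes called higher with abemaciclib, fulvestrant and the combination. STN1 rose by 0.63 ± 0.18 with abemaciclib (adjusted p = 0.00591), by 0.58 ± 0.18 with fulvestrant (0.00888) and by 0.54 ± 0.18 in the combination (0.0122). CTC1 rose in the combination (0.64 ± 0.23, 0.0226), and its values with abemaciclib (0.07 ± 0.25, 0.839) and fulvestrant (0.49 ± 0.24, 0.0908) were not called. Of the 4 testable genes of this list, 1 was lower and 1 higher with abemaciclib, 2 and 1 with fulvestrant, and 2 and 2 in the combination, with medians of -0.08, -0.21 and -0.11. Of the exonic bases of STN1, 17.9% were shared with another gene on the same strand.

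Among factors that mature Okazaki fragments or bind PCNA, all 7 listed genes were lower with abemaciclib, with fulvestrant and in the combination, with medians of -1.37, -2.17 and -2.74, beside 20.7%, 25.7% and 27.5% of all genes called lower. Of these, RNASEH2A exceeded the filter's level in the 3 DMSO libraries alone and DNA2 in those and 1 abemaciclib library, so both were tested through the group in which they were high. PCLAF, a small protein that binds PCNA, stood at 156, 209.6 and 222 CPM in DMSO and 6.01, 6.00 and 4.08 in the combination. It fell by 5.20 ± 0.16 on the log2 scale (adjusted p = 8.06e-20). FEN1, the nuclease that removes primer flaps, fell by 2.74 ± 0.16 (3.31e-14). The nuclease and helicase DNA2 fell by 2.98 ± 0.45 (2.29e-06), but it had only 3 to 5 counts per combination library, near the floor, so this change is poorly set. RNASEH2A, the catalytic subunit of ribonuclease H2, had 16 to 23 counts per DMSO library and 0 to 2 in the combination (adjusted p = 6.97e-07), too few for a fold change to be given. The smallest changes were those of RNASEH2B (-0.73 ± 0.13, 3.38e-05) and RNASEH2C (-0.77 ± 0.08, 1.19e-08), accessory subunits of ribonuclease H2. LIG1, the ligase that seals the fragments, came next in the list but fell much further (-2.36 ± 0.15, 4.43e-13). Against abemaciclib alone, 6 of the 7 were lower in the combination (17.7% of all genes), and against fulvestrant alone 2 were, PCLAF and RNASEH2C (1.63%). The interaction passed for FEN1 (0.83 ± 0.23, adjusted p = 0.012) and LIG1 (1.13 ± 0.23, 8.74e-04), 2 of the 7, beside 9.49% of all genes called in this direction.

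Polymerases of repair, translesion synthesis and mitochondria were called at shares near those of all genes in the lower direction. Of 13 that could be tested (POLN could not), 3 were lower and 2 higher with abemaciclib, 4 and 2 with fulvestrant, and 3 and 2 in the combination, with medians of -0.11, -0.0013 and 0.06. The lower calls made up 23.1%, 30.8% and 23.1% of the 13, beside 20.7%, 25.7% and 27.5% of all genes. The higher calls, 2 of the 13 in each comparison, stood beside 20.5%, 25.3% and 27.7% of all genes called higher. With DESeq2 the higher calls were 0, 2 and 1 in place of 2 in each. POLQ, the polymerase of end joining by short homologies, stood at 8.31, 6.46 and 8.68 CPM in DMSO, 2.40, 4.41 and 4.80 with abemaciclib and 0.741, 0.846 and 0.912 with fulvestrant. It had 0, 0 and 4 counts in the combination (adjusted p = 3.76e-08), so that its fold change there is poorly set. POLQ exceeded the filter's level only in DMSO and abemaciclib libraries, so it too was tested through the groups in which it was higher. POLK, a translesion polymerase, rose by 0.97 ± 0.15 in the combination (2.38e-06), from 22.6, 15.6 and 23.2 CPM in DMSO to 39.5, 42.0 and 37.7. POLI, another, rose by 0.77 ± 0.30 (0.0299), and MAD2L2, a subunit of translesion polymerase ζ, fell by 0.93 ± 0.10 (1.35e-08). The smallest changes were those of REV3L, the catalytic subunit of polymerase ζ (0.06 ± 0.15, 0.775), POLB, the main polymerase of base excision repair (0.07 ± 0.09, 0.485), and POLH, which copies past ultraviolet damage (-0.18 ± 0.12, 0.23).

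**Figure D5:**
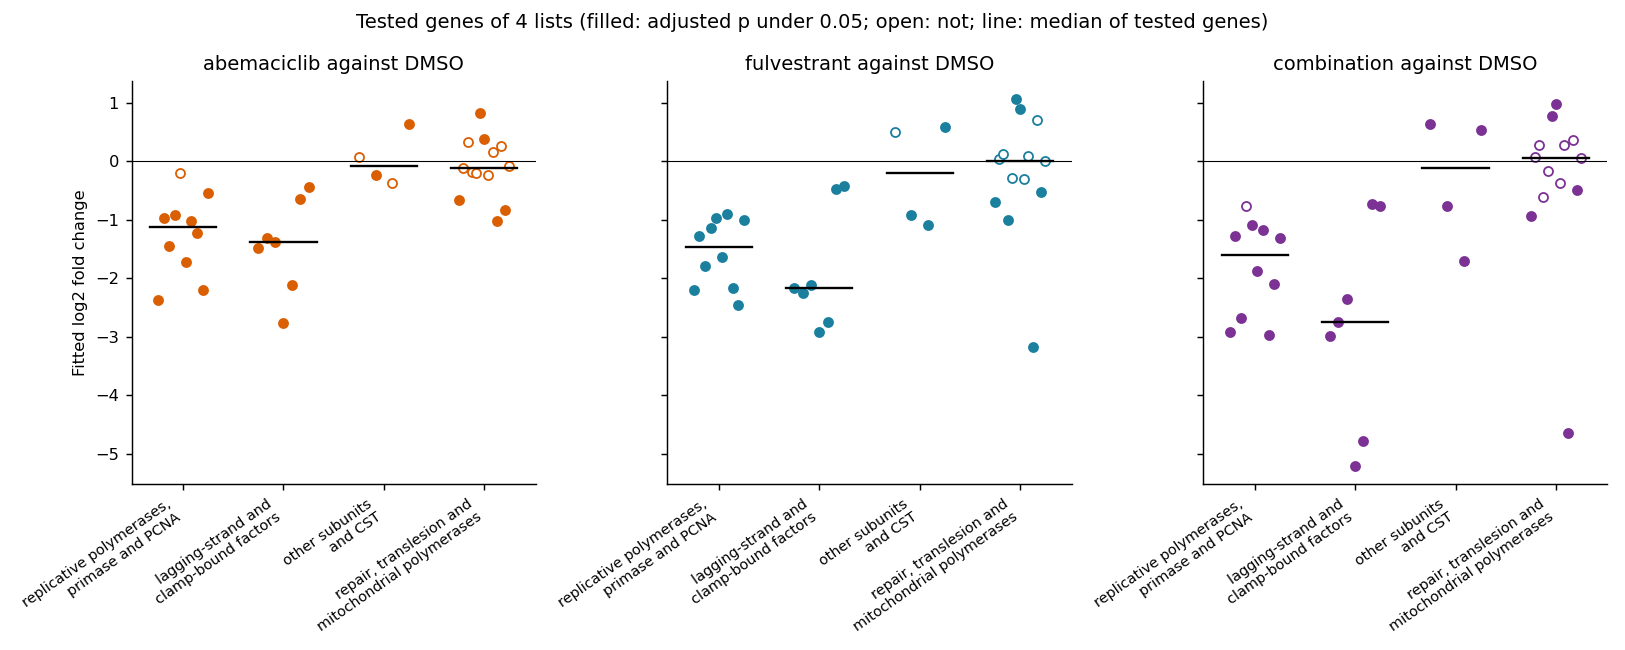
Fitted log2 fold change against DMSO (vertical axis) of the tested genes of 4 lists (horizontal axis) with abemaciclib, fulvestrant and the combination; filled points passed an adjusted p of 0.05, open points did not, and lines are medians. The 10 replicative genes and the 7 lagging-strand and clamp-bound genes all lie below 0, whereas the medians of the other lists stay between -0.21 and 0.06.

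Across the 12 libraries, the profiles of the 10 genes were compared by Pearson correlation of log2 CPM, as a description, since the libraries share 4 treatments. The most alike pair was PCNA and POLD3 (0.974) and the least alike POLD1 and POLD2 (0.421). PRIM1 (0.882) and POLA2 (0.941) were most like PCNA, POLA1 (0.938) and POLD1 (0.711) most like POLD3, PRIM2 (0.885) and POLD2 (0.856) most like POLA2, and POLE most like POLE2 (0.884). Among 8465 genes with a mean of at least 10 CPM, the 5 whose profiles were most like the mean profile of the 10 were GMNN (0.993), MCM3 (0.990), DONSON (0.989), NOL10 (0.987) and DDX39A (0.986). GMNN, geminin, blocks the licensing factor CDT1, MCM3 is a subunit of the replicative helicase and DONSON is a replication factor. GMNN stood at 71.7 ± 4.72 CPM in DMSO, 13.4 ± 0.873 with abemaciclib, 10.1 ± 1.33 with fulvestrant and 6.84 ± 1.45 in the combination. MCM3 stood at 275 ± 3.80, 95.8 ± 3.15, 69.4 ± 3.23 and 51.3 ± 2.61 CPM in the same order.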

How the data were processed

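3′ RNA-seq of CAMA1 cells was measured in 12 libraries, 3 in each of 4 groups taken from the treatment label. The deposited values are raw counts: the authors trimmed reads with BBDuk, mapped to GRCh38 by STAR, and assigned reads to GENCODE 35 genes by featureCounts 2.0.1; whether counting used the strand is not given in the sources used here. Unnamed rows (44, with 0 reads) were dropped.

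The analysis used edgeR 4.0.16 in R 4.3.3. Low genes were removed by filterByExpr (count of 10, total of 15, by group), libraries were scaled by TMM, and 4 group means were fitted to all 12 libraries by robust quasi-likelihood. P-values were adjusted over 11803 genes, and standard errors came from the F statistic. Alternatives were DESeq2 1.42.0, other scalings and filters, a replicate block, fits of only the groups compared, and each library left out. The code was tested on simulated data. Confidence intervals come from the fit and carry the spread between libraries, whereas floors (3 counts) cover counting error only, since no molecular identifiers are named. Totals of 3299119 to 5164667 counts limit the precision of genes with few counts.

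All 10 genes and all subunits outside them are named; of the other 2 lists, up to 4 called genes with the largest and 3 with the smallest change in the combination, and the 5 genes most like the mean profile. The genes, lists and rules were chosen with earlier results of these data known. Gene positions are from GENCODE 44 and promoters from RefSeq, both on GRCh38.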

Additional observations from a re-analysis of the deposited data

Results flagged for a closer look

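The change with abemaciclib differed according to whether fulvestrant was present for 4 of the 10 genes, by the edgeR test of the interaction (adjusted over all genes). The labels did not restate the doses of the combination, and this reading takes them to be those of the single drugs. The difference, the log2 change with fulvestrant minus that without, was 2.56 ± 0.36 (SE) for PRIM1, 1.64 ± 0.17 for PCNA, 1.49 ± 0.16 for POLD3 and 0.98 ± 0.20 for POLA1, beside 9.49% of all genes called in this direction. Leaving out each library in turn gave 2.24 to 2.77 for PRIM1, 1.52 to 1.73 for PCNA, 1.35 to 1.67 for POLD3 and 0.84 to 1.09 for POLA1, all with an adjusted p of at most 0.00502.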

How the results depend on the processing

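Of 1015 alternative values for single genes, 975 kept their direction and side of the threshold. Leaving out 1 library gave 6 to 9 of the 10 genes called with abemaciclib, 9 to 10 with fulvestrant, 9 in the combination, 4 to 5 for the combination against abemaciclib, 2 against fulvestrant, 1 for fulvestrant against abemaciclib and 4 to 5 for the interaction. With DESeq2, 3 polymerases outside replication, all lower, were called with abemaciclib in place of 5 (3 lower and 2 higher), 1 of the other subunits for fulvestrant against abemaciclib in place of 2, and 1 polymerase outside replication for the interaction in place of 2.

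No pairing by replicate number was seen: deviations of same-numbered libraries from their group means correlated at -0.215 to 0.119. DMSO replicate 1 and fulvestrant replicate 3, which are numbered differently, correlated at 0.301. With 3 libraries in each group, these values cannot show that the libraries were unpaired. With a replicate block the count for the interaction in polymerases outside replication was also 1, and it changed no other call count by over 1.5 times; the interaction over all genes gave 2438 calls in place of 2493.

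Differences that that were not called turned sign as follows. POLA1 for the combination against fulvestrant was -0.00035 with DESeq2 and -0.00041 with median-of-ratios scaling. Over libraries left out, the combination against fulvestrant ran from -0.13 to 0.12 for POLA1 (below 0 without fulvestrant replicate 1 or combination replicate 2) and from -0.45 to 0.011 for POLE. The combination against abemaciclib ran from -0.16 to 0.49 for POLD1 (below 0 without abemaciclib replicate 3) and from -0.32 to 0.14 for POLE. In both, POLE was above 0 without combination replicate 3. Fulvestrant against abemaciclib ran from -0.52 to 0.12 for POLD1 (above 0 without abemaciclib or fulvestrant replicate 2), from -0.46 to 0.067 for PRIM1 and from -0.10 to 0.22 for POLD3, both of which turned without fulvestrant replicate 3. The interaction ran from -0.28 to 1.05 for POLE2 (below 0 without combination replicate 1) and from -0.049 to 0.19 for POLD2 (below 0 without combination replicate 3). The ratio of POLE2 over POLE with abemaciclib against DMSO ran from -0.21 to 0.18. The causes were not tested.

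Over all genes, the combination against fulvestrant gave 227 calls, but 91 with at least 10 counts in every library (which removes POLD1 and POLE2), 125 when only these groups were fitted, 588 without fulvestrant replicate 3 and 146 without combination replicate 3. The interaction had 44.9% of its calls higher, and 61.5% with no scaling factors. For POLD1 and POLE2 the depth limits what can be shown.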
